A study of Homo sapiens with 2 samples.

Results

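The transcripts described here encode 8 abundant nucleolar and RNA-binding proteins: NPM1, NCL, NOLC1, HNRNPA1, HNRNPA2B1, HNRNPC, YBX1 and SET. They were chosen by name, and their poly(A) sites are those that lie inside a fixed interval of hg19 for each gene, on the strand of the gene. The intervals held 13 sites, of 8890 sites found in both libraries. NPM1, HNRNPA2B1 and YBX1 had 1 site each, and the other genes had 2, called proximal and distal by their order along the transcript. The site with the most reads of each gene is its main site. At 12 of the 13 sites every subsample had at least 10 reads. The exception was the proximal NOLC1 site, with 93 reads in all, which entered no test.

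Tail lengths were read with nanopore direct RNA sequencing, in which each native RNA passes through a pore together with its poly(A) tail. The cells were HCT116, a human colon cancer line in which PABPC1 and PABPC4, the cytoplasmic proteins that bind poly(A), both carry an auxin-inducible degron (AID). A transposon-borne transgene, induced by doxycycline in polyclonal lines, supplied PABPC1 in one library and PABP1212 in the other, the latter being PABPC1 with its RNA recognition motifs RRM1 and RRM2 duplicated. Doxycycline at 1 μg/mL and the auxin indole-3-acetic acid (IAA) at 0.5 mM were given for 13 days, and the cells were then sorted by transgene expression into 4 gates of 25% of the cells each. The gates are called here the lowest, second-lowest, second-highest and highest level. Each library also holds a subsample of uninduced cells, which have the same AID alleles and transgene but received neither agent and were not sorted. There were 2 libraries, 1 per transgene, with 5 subsamples each, so every level is 1 observation per library. The transgene cannot be told apart from the library, the level from its set of barcodes, or the effect of replacing the proteins from those of doxycycline, IAA, sorting and barcodes.

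Poly(A)-binding proteins coat the tails of cytoplasmic mRNAs, join the tail to the translation machinery and influence the enzymes that shorten it. NPM1, NCL and NOLC1 proteins are found mainly in the nucleolus, where ribosomal RNA is made and ribosomes are assembled. HNRNPA1, HNRNPA2B1 and HNRNPC proteins package nuclear pre-mRNA and take part in its splicing, YBX1 is a cold-shock domain protein that packages cytoplasmic mRNA, and SET is a histone chaperone that also inhibits a protein phosphatase.

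Where an mRNA has several poly(A) sites, a hexamer shortly before the cleavage position (AATAAA, or the weaker ATTAAA) recruits the cleavage machinery, and the tail is added at the end shown last here. The ends of HNRNPA1 and NOLC1 transcripts are printed because these are the genes whose measured site spacing matched the spacing of annotated transcript ends in GENCODE v29 to the base. The sites of HNRNPA1 lay 370 nt apart, a spacing shared by 1 of 78 pairs of its annotated ends, and those of NOLC1 lay 1270 nt apart, shared by 1 of 21 pairs. The spacings of NCL (102 nt), HNRNPC (417 nt) and SET (860 nt) matched no pair. Each line gives the last 30 bases of the transcript, 5′ to 3′, with the hexamer in capitals.
HNRNPA1 proximal: cgtgacgctgAATAAAtgtcttttttttaa
HNRNPA1 distal: cAATAAAcgatttaattctcttgaatgaaa
NOLC1 proximal: tatattttatATTAAAtcacttactattga
NOLC1 distal: aaaatAATAAActggctggtttataatgtg
The hexamer began 20 nt before the end at both proximal ends, 29 nt before it at the distal HNRNPA1 end and 25 nt before it at the distal NOLC1 end. The sparsely used proximal NOLC1 end is the only one of the 4 with ATTAAA, and a link between hexamer and use was not tested. On the transcript strand, AATAAA stood in the last 30 bases of 30.6% of 83129 annotated coding transcripts and ATTAAA in 8.91%. These lines describe annotated ends and are linked to the measured sites by spacing alone.

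By the files' coordinates, the NPM1 site lay on chromosome 5 at 170837904 (plus strand), the NCL sites on chromosome 2 at 232319561 and 232319459 (minus), and the NOLC1 sites on chromosome 10 at 103922357 and 103923627 (plus). The HNRNPA1 sites lay on chromosome 12 at 54678665 and 54679035 (plus), the HNRNPA2B1 site on chromosome 7 at 26231464 (minus), and the HNRNPC sites on chromosome 14 at 21679096 and 21678679 (minus). The YBX1 site lay on chromosome 1 at 43168034 (plus) and the SET sites on chromosome 9 at 131457815 and 131458675 (plus). None of the 13 sites, and 2.67% of all 9004 sites in either library, lay within 25 nt of a transcript end of the hg38 annotation, so the positions are not those of hg38. Gene parts, cell type markers and other genes of these families were not analysed here, because no annotation of the files' build was used. GENCODE v29 names 74 pseudogenes of HNRNPA1, 45 of NPM1, 19 of SET, 10 of YBX1, 9 of HNRNPC and 2 of NCL, and how the authors placed reads shared with such copies is not given in the sources used here.

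Depth ranged from 65862 to 630986 reads per subsample, with the PABP1212 library the deeper. The 13 sites took between 0.637% and 0.998% of the reads of a subsample. NPM1 had 4752 reads over all subsamples, HNRNPA1 3572 at its proximal and 1766 at its distal site, HNRNPA2B1 1812, YBX1 1604, and NCL 1304 and 1205. HNRNPC had 1210 reads at its proximal and 1287 at its distal site, SET 808 and 533, and NOLC1 662 at its distal site. The medians below carry 95% intervals where given, which cover the sampling of reads only. Reads with a tail listed at 0 nt made up 0.278% to 2.25% of each subsample and were kept.

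In both libraries all 12 sites had longer median tails at the lowest transgene level than in uninduced cells. With PABP1212, tails at 11 of 12 sites were shorter than in uninduced cells at the second-highest level and 10 of 12 at the highest, while with PABPC1 7 and 9 of 12 were longer at these levels. The difference between libraries did not pass the tests given further on. Of the 914 sites with at least 10 reads in every subsample, 82.1% (PABPC1) and 91% (PABP1212) were longer at the lowest level, and 86.7% and 83.8% were shorter at the PABP1212 second-highest and highest levels. At the PABPC1 second-highest and highest levels 51% and 55.6% of them were longer. At the lowest level the median change over the 12 sites was 21.25 nt with PABPC1 (8 to 55 nt) and 19.75 nt with PABP1212 (8 to 52 nt), beside 20 and 25.75 nt over all 914 sites. At the highest level it was 11.5 nt with PABPC1 (beside 3 nt over all sites) and −9.25 nt with PABP1212 (beside −13.25 nt).

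**Figure D1:**
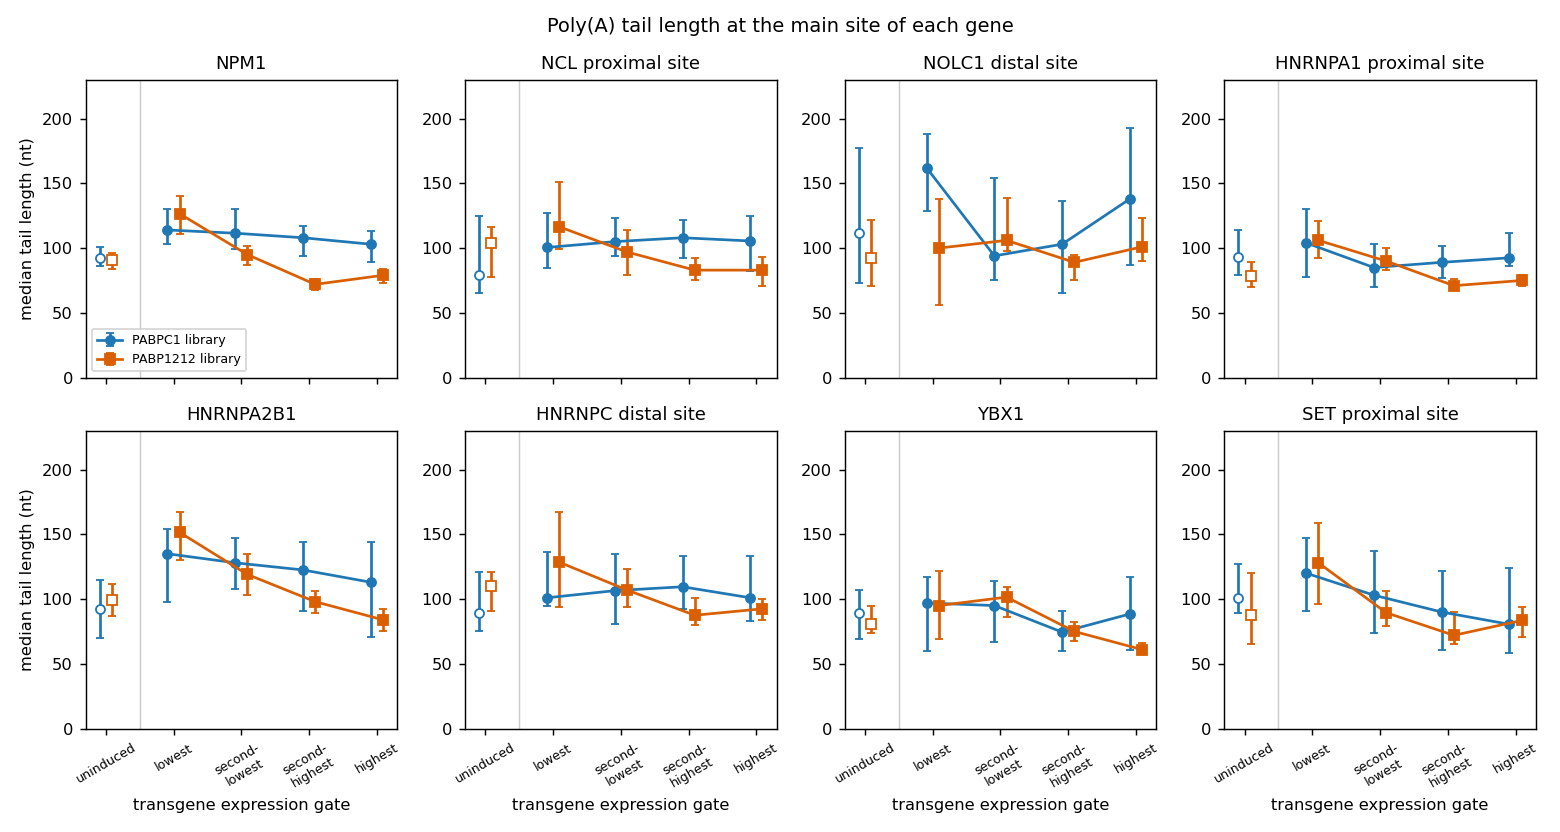
Median poly(A) tail length in nt (vertical axis) at the main site of each gene, for uninduced cells (open symbols) and the 4 transgene levels (horizontal axis) in the PABPC1 (circles) and PABP1212 (squares) libraries; bars are 95% intervals of the median from the sampling of reads. HNRNPA2B1 reached 151.5 nt at the lowest PABP1212 level and YBX1 was at 61 nt at the highest.

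Among the nucleolar genes, NPM1, a ribosome assembly factor and histone chaperone that shuttles between nucleolus and cytoplasm, gave the most precise tails. In the order uninduced, lowest, second-lowest, second-highest and highest level, its median tail was 92, 114, 111.5, 108 and 103 nt in the PABPC1 library. In the PABP1212 library it was 91, 126.5, 95, 72 and 79 nt. The interval at the lowest PABP1212 level (111 to 140 nt) lay above those of the uninduced cells (84 to 96 nt) and of the second-highest (68 to 76 nt) and highest level (73 to 84 nt). The second-highest level also lay below the uninduced interval, and the highest level touched it. In the PABPC1 library the interval at the lowest level (103 to 130 nt) lay above that of uninduced cells (86 to 101 nt), while those of the 4 levels overlapped.

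NCL encodes nucleolin, which binds ribosomal RNA precursors. At its proximal, main site the median tail was 79, 100.5, 105, 108 and 105.5 nt with PABPC1, in the same order, and 104, 116.5, 97, 83 and 83 nt with PABP1212. The PABPC1 levels were thus all longer than the uninduced cells and close to each other, and the uninduced cells of the PABPC1 library had only 43 reads (interval 65 to 125 nt). At the distal NCL site the medians ran from 96 to 117 nt with PABPC1 and from 99 to 119 nt with PABP1212.

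NOLC1, which encodes a nucleolar phosphoprotein that acts as a chaperone of small nucleolar ribonucleoproteins, was the least abundant. At its distal, main site the median tail was 111.5, 162, 94, 103 and 138 nt with PABPC1, on 12 to 45 reads per subsample. With PABP1212 it was 92, 100, 106, 89 and 101 nt, on 49 to 175 reads. The 5 PABP1212 medians, from 89 to 106 nt, all lay inside the interval of the uninduced cells (71 to 122 nt).

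Of the hnRNP genes, HNRNPA1, a splicing regulator, had median tails at its proximal site of 93, 104, 85, 89 and 92.5 nt with PABPC1 and of 78.5, 106, 90, 71 and 75 nt with PABP1212. The PABPC1 levels thus lay on both sides of the uninduced cells, and among the sorted subsamples only the PABP1212 lowest level had an interval (92 to 121 nt) clear of that of its uninduced cells (70 to 89 nt). At the distal HNRNPA1 site the medians were 91.5, 112, 92.5, 88 and 96.5 nt with PABPC1 and 92, 110, 97, 80.5 and 77 nt with PABP1212.

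HNRNPA2B1, which encodes relatives of HNRNPA1, had the widest range among the main sites with PABP1212. Its median tail was 92, 135, 128, 122.5 and 113 nt with PABPC1 and 99.5, 151.5, 119, 98 and 84 nt with PABP1212. In both libraries the lowest level had the longest median tail and each higher level a shorter median than the level before. With PABPC1 the intervals of the 4 levels overlapped, from 98 to 154 nt at the lowest to 71 to 144 nt at the highest. The PABPC1 mean tail did not follow this order, at 137 nt at the lowest and 138 nt at the second-lowest level. At the lowest PABP1212 level 51.1% of HNRNPA2B1 reads (exact Clopper-Pearson 95% interval 40.4% to 61.7%) had a tail of at least 150 nt, against 21.4% (15.8% to 27.8%) in uninduced cells and 23.6% (19.7% to 27.9%) at the highest level. At all sites outside these genes the shares in these 3 subsamples were 38.9%, 17.8% and 18.3%, so the rise and return were general.

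HNRNPC encodes a nuclear protein that binds uridine-rich stretches of pre-mRNA. At its distal, main site the median tail was 89, 101, 106.5, 109.5 and 101 nt with PABPC1 and 110, 128.5, 107, 87.5 and 92.5 nt with PABP1212. The PABPC1 levels were close together, and the medians of the 2 upper PABP1212 levels were below that of their uninduced cells. The intervals of these 2 levels (80 to 101 and 84 to 100 nt) overlapped the uninduced one (91 to 121 nt). The proximal site ran from 78 to 113 nt with PABPC1 and from 85.5 to 116 nt with PABP1212.

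YBX1 had its longest PABP1212 tails at the second-lowest level and its shortest at the highest. Its median tail was 89, 97, 95, 74.5 and 88.5 nt with PABPC1 and 81, 95, 101.5, 75 and 61 nt with PABP1212. The highest PABP1212 level (interval 58 to 66 nt, 464 reads) was the shortest median of any of the 12 sites in any subsample, and its interval lay below those of the other 4 PABP1212 subsamples. The change from uninduced cells at that level was −20 nt, and 26.6% of the 914 sites fell by more.

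SET had median tails at its proximal, main site of 101, 120, 103, 90 and 80.5 nt with PABPC1 and of 87.5, 128, 89.5, 72 and 83.5 nt with PABP1212. In the PABPC1 library they were shorter at each higher level, on 27 to 53 reads, with intervals that all overlap. At the distal SET site they were 73, 128, 98, 89 and 123 nt with PABPC1, on 15 to 28 reads, and 75, 98.5, 109, 88 and 77 nt with PABP1212. The distal SET site had the shortest tails of the 12 in uninduced cells, with 6.24% of the 914 sites shorter in the PABPC1 library and 5.58% in the PABP1212 library.

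In uninduced cells the main sites were ordered, from short to long, NCL (79 nt), HNRNPC and YBX1 (89 nt each), NPM1 and HNRNPA2B1 (92 nt each), HNRNPA1 (93 nt), SET (101 nt) and NOLC1 (111.5 nt) in the PABPC1 library. In the PABP1212 library the order was HNRNPA1 (78.5 nt), YBX1 (81 nt), SET (87.5 nt), NPM1 (91 nt), NOLC1 (92 nt), HNRNPA2B1 (99.5 nt), NCL (104 nt) and HNRNPC (110 nt). Intervals of neighbours overlapped throughout. Uninduced cells of the libraries differed by −1 nt at NPM1, and by −19.5 nt (distal NOLC1) to 25 nt (proximal NCL) over the 12 sites. The median size of this difference over all 914 sites was 9.5 nt. The order of these genes in uninduced cells thus differed between the libraries, within intervals that mostly overlap.

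**Figure D2:**
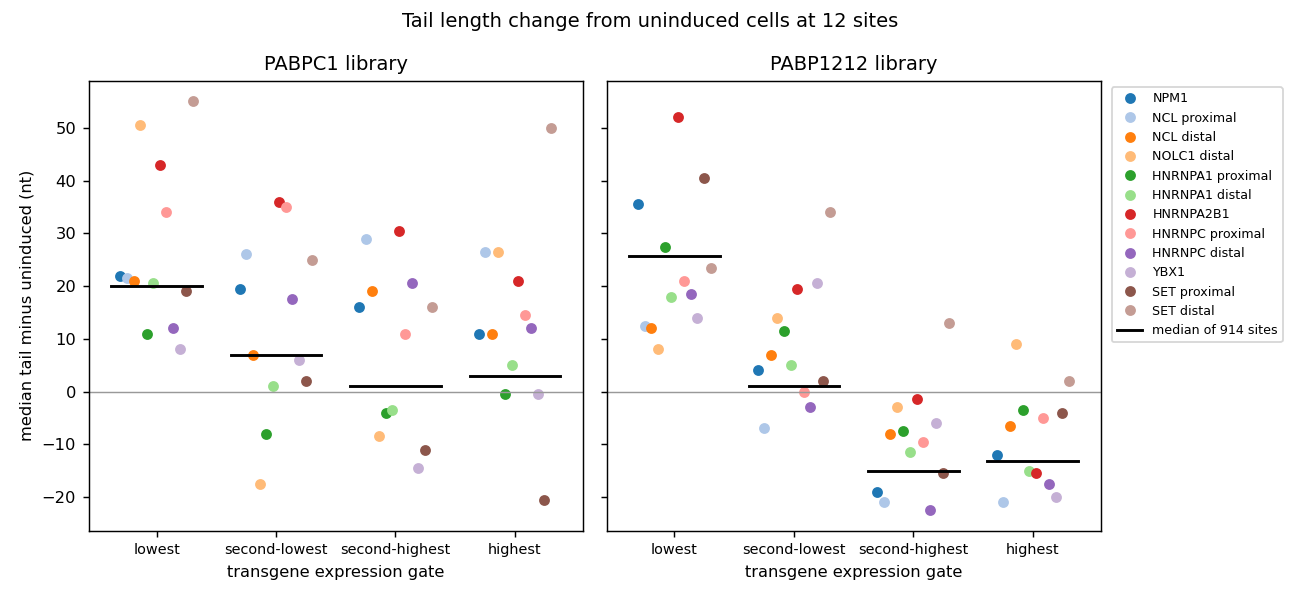
Change in median tail length from uninduced cells in nt (vertical axis) at each transgene level (horizontal axis) for 12 sites of the 8 genes (coloured points), PABPC1 library left and PABP1212 library right; black bars are the median change of all 914 sites. All 12 points lie above 0 at the lowest level of both libraries, and 10 of 12 lie below 0 at the highest PABP1212 level.

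The course over the 4 sorted levels was tested for every site with limma, as the change per level in the mean log2(tail length + 1). The spread is that of the subsamples around a straight line (4 residual degrees of freedom) and may be technical. With PABP1212, tails fell with level at NPM1, distal HNRNPA1, HNRNPA2B1 and YBX1, and none of the 12 sites passed as rising. The main, proximal HNRNPA1 site did not pass (−0.12 per level, adjusted p = 0.109, limma). Of all 914 sites 15.2% passed the test in this library, all falling, and 4 of the 12 sites passed it. HNRNPA2B1 fell by 0.24 per level on the log2 scale (SE 0.06, adjusted p = 0.0106, limma with Benjamini-Hochberg adjustment over all sites), YBX1 fell by 0.22 (SE 0.06, adjusted p = 0.0207, limma) and NPM1 fell by 0.18 (SE 0.04, adjusted p = 0.00878, limma). The distal HNRNPA1 site fell by 0.16 (SE 0.05, adjusted p = 0.0436, limma). At the other 8 sites the estimate ran from −0.15 to 0.04 per level with adjusted p from 0.0974 (proximal NCL) to 0.742 (distal NOLC1, the only positive estimate). The median over the 12 sites was −0.15, beside −0.14 over all 914. No site of the 12 passed without the lowest or without the second-lowest PABP1212 level (11 and 13 of all 914). Without the second-highest or the highest PABP1212 level 8 and 9 of the 12 passed (490 and 665 of all 914), and without the highest PABPC1 level 2 did (71 of all 914). With the median of each subsample over all sites subtracted, none of the 12 passed in limma, and the fall per level was 0.10 for HNRNPA2B1 (adjusted p = 0.178), 0.11 for YBX1 (0.267), 0.05 for NPM1 (0.327) and 0.03 for distal HNRNPA1 (0.855).

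In the PABPC1 library 0% of the 914 sites passed the same test in limma, and none of the 12, of which none reached an unadjusted p under 0.05 (15 of all sites did). The 12 estimates ran from −0.16 (proximal SET) to 0.07 (distal NCL), with a median of −0.07 beside −0.08 over all sites. The PABPC1 library was the shallower, and its standard errors were larger than those with PABP1212 at all 12 sites (0.085 against 0.044 at NPM1). The difference in trend between the libraries passed at 0% of sites in limma (2 sites at an unadjusted p under 0.05, none of the 12), with a median of −0.10 at the 12 sites and −0.06 over all. That tails fell with level only with PABP1212 is therefore not shown. Sorted against uninduced cells, taking the mean of the 4 levels, tails passed the limma test at 0% of sites in either library and in the difference between them. Unadjusted p was under 0.05 at 1, 34 and 2 of 914 sites for these 3 tests, and at none of the 12. With PABP1212 the levels lay on both sides of uninduced cells, with median changes over all sites of 25.75 nt at the lowest and −13.25 nt at the highest level. A mean of the 4 levels therefore cannot show a change at the lowest level alone, which was not tested.

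NPM1 had enough reads to follow the shape of its tail distribution. With PABP1212 the share of NPM1 reads with a tail under 30 nt was 6.98% in uninduced cells (exact Clopper-Pearson 95% interval 4.96% to 9.49%), 5.94%, 9.76%, 17.4% (15.3% to 19.6%) and 17.2% (15.1% to 19.4%) from the lowest to the highest level. The share with at least 150 nt was 13.6% (10.8% to 16.8%), 39.9% (34.1% to 45.8%), 25.3%, 16.1% (14.1% to 18.3%) and 16.7% (14.7% to 19%). At the 2 upper levels short tails were thus more frequent than in uninduced cells, while the share of long tails was close to the uninduced one and its intervals overlapped. This course was not particular to NPM1. At all PABP1212 sites outside these genes the share with at least 150 nt was 17.8%, 38.9%, 26.9%, 19.2% and 18.3% in the same order. The share under 30 nt there was 6.22% in uninduced cells and 14.3% and 13.2% at the 2 upper levels. The 10th percentile of NPM1 tail length was 36 nt in uninduced cells and 20 nt at the highest level, and the 90th percentile was 165 and 174 nt. In the PABPC1 library 4.42%, 1.91%, 6.16%, 8.96% and 6.76% of NPM1 reads were under 30 nt, and 18.2%, 25.5%, 21.9%, 26.1% and 21.6% were at least 150 nt long.

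Over all 13 sites together, reads under 30 nt made up 5.91%, 6.52%, 7.67%, 12.7% and 13% of the PABP1212 subsamples in the same order and 3.86%, 3.09%, 5.08%, 7.7% and 7.34% of the PABPC1 ones. At all other sites these shares were 6.22%, 7.89%, 9.86%, 14.3% and 13.2%, and 5.27%, 3.95%, 4.86%, 7.05% and 6.87%. The share was lower at the 13 sites than elsewhere in all 5 PABP1212 subsamples and in 2 of 5 PABPC1 subsamples. The share elsewhere lay inside the exact 95% interval of the 13 sites in every PABPC1 subsample. With PABP1212 it did so in uninduced cells (4.91% to 7.05%) and at the lowest (5.19% to 8.07%) and highest level (12.1% to 14%).

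**Figure D3:**
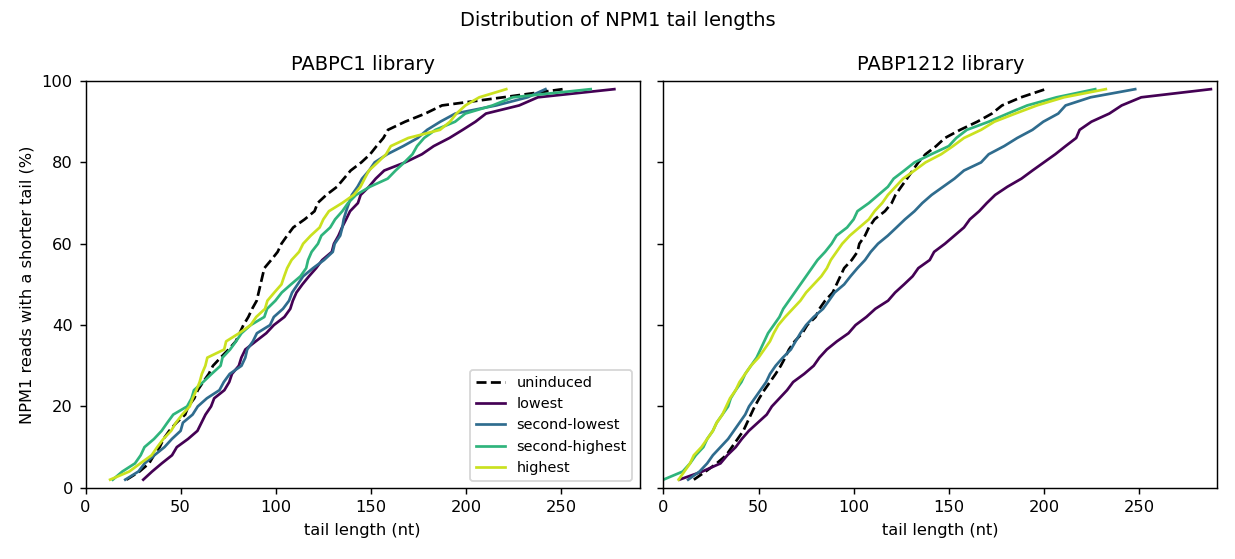
Cumulative distribution of NPM1 tail lengths: percent of NPM1 reads with a shorter tail (vertical axis) against tail length in nt (horizontal axis), for uninduced cells (dashed) and the 4 levels, in the PABPC1 (left) and PABP1212 (right) libraries. In the PABP1212 library the second-highest and highest levels lie to the left of uninduced cells at the short end (10th percentile 21 and 20 nt against 36 nt) and meet them at the long end (90th percentile 171 and 174 nt against 165 nt).

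The 3 sites outside these genes whose median tails over the 10 subsamples were most like those of NPM1 lay on chromosome 2 at 198351308 (minus strand, Pearson r = 0.968), chromosome 9 at 113006242 (minus, r = 0.957) and chromosome 17 at 37006334 (minus, r = 0.956). They were the most alike of 144 sites with at least 50 reads in every subsample. The median r of these 144 sites with NPM1 was 0.895, so a high r was common. The other sites of these genes had r with NPM1 from 0.363 (distal NOLC1) to 0.912 (HNRNPA2B1). Most of these had fewer than 50 reads in some subsample. The 10 points share their libraries and depths.

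For 4 genes the tails of transcripts ending at the proximal and the distal site could be compared within each subsample. Distal NCL transcripts had longer tails than proximal ones in 9 of 10 subsamples, by 9.6 nt ± 7.9 (SD over 10 subsamples), and distal HNRNPA1 transcripts in 8 of 10, by 5.3 nt ± 4.72. Two-sided exact sign-flip permutation tests over the 10 subsamples gave p = 0.00586 for NCL and p = 0.00977 for HNRNPA1, adjusted over the 4 genes to p = 0.0195 for each. HNRNPC differed by 6.65 nt ± 9.83 in the same direction in 8 of 10 (exact p = 0.0703, adjusted p = 0.0938), and SET by 0.35 nt ± 22.1, longer in 4 of 10 (exact p = 0.961, adjusted p = 0.961). Within the libraries the NCL difference was 8 nt with PABPC1 (longer in 4 of 5) and 11.2 nt with PABP1212 (5 of 5), and that of HNRNPA1 was 3.4 nt (3 of 5) and 7.2 nt (5 of 5). The smallest p these tests can give is 0.00195, the comparison was chosen after the data were seen, and levels of 1 library are not independent cultures.

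The proportion of reads at each end varied by an SD of 3.13 to 7.15 percentage points over the subsamples. The proximal site took 66.1% ± 3.13 (SD over 10 subsamples) of HNRNPA1 reads, 61.2% ± 3.93 of SET reads, 53% ± 7.15 of NCL reads, 47.3% ± 5.39 of HNRNPC reads and 12.9% ± 5.94 of NOLC1 reads. NCL varied most in the PABPC1 library, where its proximal share was 51.2%, 43.1%, 50%, 57.6% and 69% in the order uninduced to highest level. The interval at the highest level (58.1% to 78.5%) lay above that at the lowest (30.8% to 56%). In the PABP1212 library it was 49.6%, 57.5%, 48.7%, 48.5% and 54.4%, with overlapping intervals at the lowest and highest level.

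**Figure D4:**
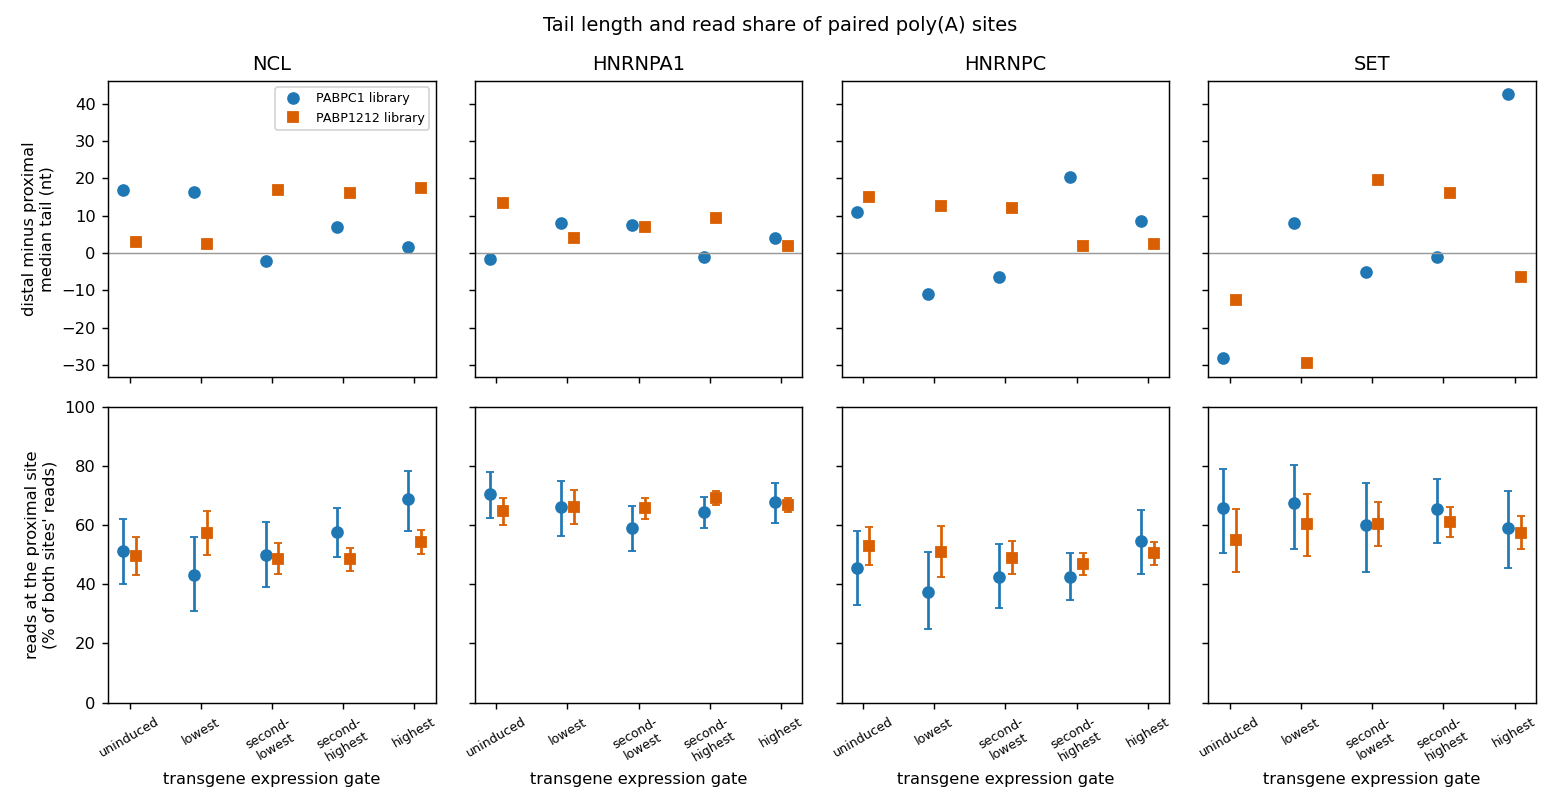
Top: median tail length at the distal site minus that at the proximal site in nt for NCL, HNRNPA1, HNRNPC and SET in the 5 subsamples of the PABPC1 (circles) and PABP1212 (squares) libraries; bottom: percent of the reads of both sites that ended at the proximal site, with exact 95% intervals for counting error. The NCL difference is above 0 in 9 of 10 subsamples, and its proximal share reaches 69% at the highest PABPC1 level.

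Abundance was taken as reads per site, scaled to the depth of the subsample as CPM, and is a share of the sequenced RNA, so it says nothing of the total amount of mRNA per cell. In these bulk subsamples fewer cells of a kind and less RNA per cell cannot be told apart. The scaling used median ratios to a reference profile, and the position of a level relative to uninduced cells depends on it at several sites, as given beside them for scaling by total reads. In the PABPC1 library the estimate for sorted against uninduced cells was negative at all 12 sites (11 with upper-quartile scaling). Over all sites it was positive at 40%. The fall passed the test at 6 sites of 6 genes: YBX1, HNRNPA2B1, NPM1, NOLC1, NCL and HNRNPA1. Of all sites 15.2% passed as lower. With PABP1212 the estimate was negative at 9 of 12 sites, beside a positive one at 32.3% of all sites, and none of the 12 passed. Scaled by total reads it was negative at 6 of 12, with 46.9% of all sites positive.

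For NPM1 the scaled CPM was 2852, 2241, 1440, 1388 and 1445 with PABPC1, in the order uninduced, lowest, second-lowest, second-highest and highest level. With PABP1212 it was 2751, 1831, 1897, 1948 and 2133. All sorted subsamples were below their uninduced cells, and the 3 upper PABPC1 levels were near each other. At the distal NCL site it was 646, 528, 424, 316 and 264 with PABPC1, lower at each level than at the one before, and 623, 493, 575, 531 and 500 with PABP1212. The proximal NCL site had 678, 400, 424, 430 and 586 with PABPC1 and 612, 666, 546, 499 and 597 with PABP1212. The main NOLC1 site had 347, 171, 187, 233 and 185 with PABPC1 and 343, 314, 259, 277 and 306 with PABP1212, so the uninduced cells were highest in both libraries. Scaled by total reads, the lowest PABP1212 level (350 CPM) was above the uninduced cells (313 CPM).

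Among the hnRNP genes, proximal HNRNPA1 had 1591, 999, 996, 1098 and 1269 CPM with PABPC1 and 1453, 1223, 1466, 1693 and 1688 with PABP1212. It was thus below uninduced cells at every PABPC1 level but above them at 3 PABP1212 levels (all 4 when scaled by total reads). HNRNPA2B1 had 1150, 671, 661, 590 and 556 CPM with PABPC1 and 996, 589, 712, 822 and 753 with PABP1212, below uninduced cells at all 8 levels. The distal HNRNPC site, its main one, had 567, 528, 493, 456 and 390 with PABPC1 and 571, 435, 530, 586 and 567 with PABP1212. Uninduced cells were above every PABPC1 level and below 1 PABP1212 level, but scaled by total reads (533 and 522 CPM) they were below the lowest PABPC1 level (562 CPM) and below 3 PABP1212 levels (547, 586 and 556 CPM).

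YBX1 had 898, 300, 454, 497 and 508 CPM with PABPC1 and 872, 403, 581, 721 and 817 with PABP1212. In both libraries the lowest level was the lowest of the 5 subsamples, also when scaled by total reads (319 and 450 CPM). By that scaling the highest PABP1212 level (801 CPM) was level with its uninduced cells (796 CPM). Proximal SET had 488, 443, 266, 274 and 351 CPM with PABPC1 and 259, 352, 339, 372 and 324 with PABP1212, so that its uninduced cells were the lowest subsample of the PABP1212 library. With PABPC1 they were the highest, but not when scaled by total reads (459 CPM against 471 at the lowest level).

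Sorted against uninduced cells, 25.1% of 801 sites with a mean of at least 50 reads passed the limma test in the PABPC1 library. Of all 801 sites 15.2% passed as lower and 9.86% as higher in sorted cells, and 6 of the 12 sites passed, all lower. The balance over all sites depends on the scaling, with 122 lower and 79 higher here, 105 and 114 with total reads, and 31 and 98 with the upper quartile. The log2 change was −1.06 (SE 0.20, adjusted p = 0.00262, limma) for YBX1, −0.90 (SE 0.18, adjusted p = 0.00366) for HNRNPA2B1 and −0.84 (SE 0.18, adjusted p = 0.00461) for NPM1. It was −0.80 (SE 0.19, adjusted p = 0.00901) for distal NCL, −0.84 (SE 0.26, adjusted p = 0.0276) for distal NOLC1 and −0.55 (SE 0.16, adjusted p = 0.021) for proximal HNRNPA1. The 6 sites that did not pass ranged from −0.58 (proximal SET, adjusted p = 0.111) to −0.14 (distal HNRNPA1). The median over the 12 sites was −0.58, beside −0.15 over all 801, and with the upper quartile −0.40 beside 0.03. Each of these values rests on 1 uninduced subsample, with 16 to 181 reads per site, and 3 of the 12 sites passed with upper-quartile scaling, 6 with total reads.

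With PABP1212 12.5% of the 801 sites passed and none of the 12 in limma, of which 3 had an unadjusted p under 0.05: YBX1 at −0.52 (adjusted p = 0.101), NPM1 at −0.50 (adjusted p = 0.0729) and HNRNPA2B1 at −0.48 (adjusted p = 0.0855). With voom weights 2 of the 12 passed, and with the PABP1212 library fitted alone 3 did. The median was −0.18, beside −0.21 over all sites, and −0.01 beside −0.04 when scaled by total reads. Of all sites 84 were called lower and 16 higher, but 26 and 24 when scaled by total reads. The difference between libraries in this change was positive at all 12 sites (10 with upper-quartile scaling) and at 41.1% of all sites. This difference had a median of 0.50 at the 12 sites, beside −0.09 over all sites. It passed at 0.624% of sites and at none of the 12 in limma (2 had an unadjusted p under 0.05, proximal SET at 0.99 and proximal HNRNPA1 at 0.60, each with adjusted p = 0.327), nor at any of the 12 with voom weights. The lower abundance in the PABPC1 library is therefore not shown to differ from that in the PABP1212 library.

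**Figure D5:**
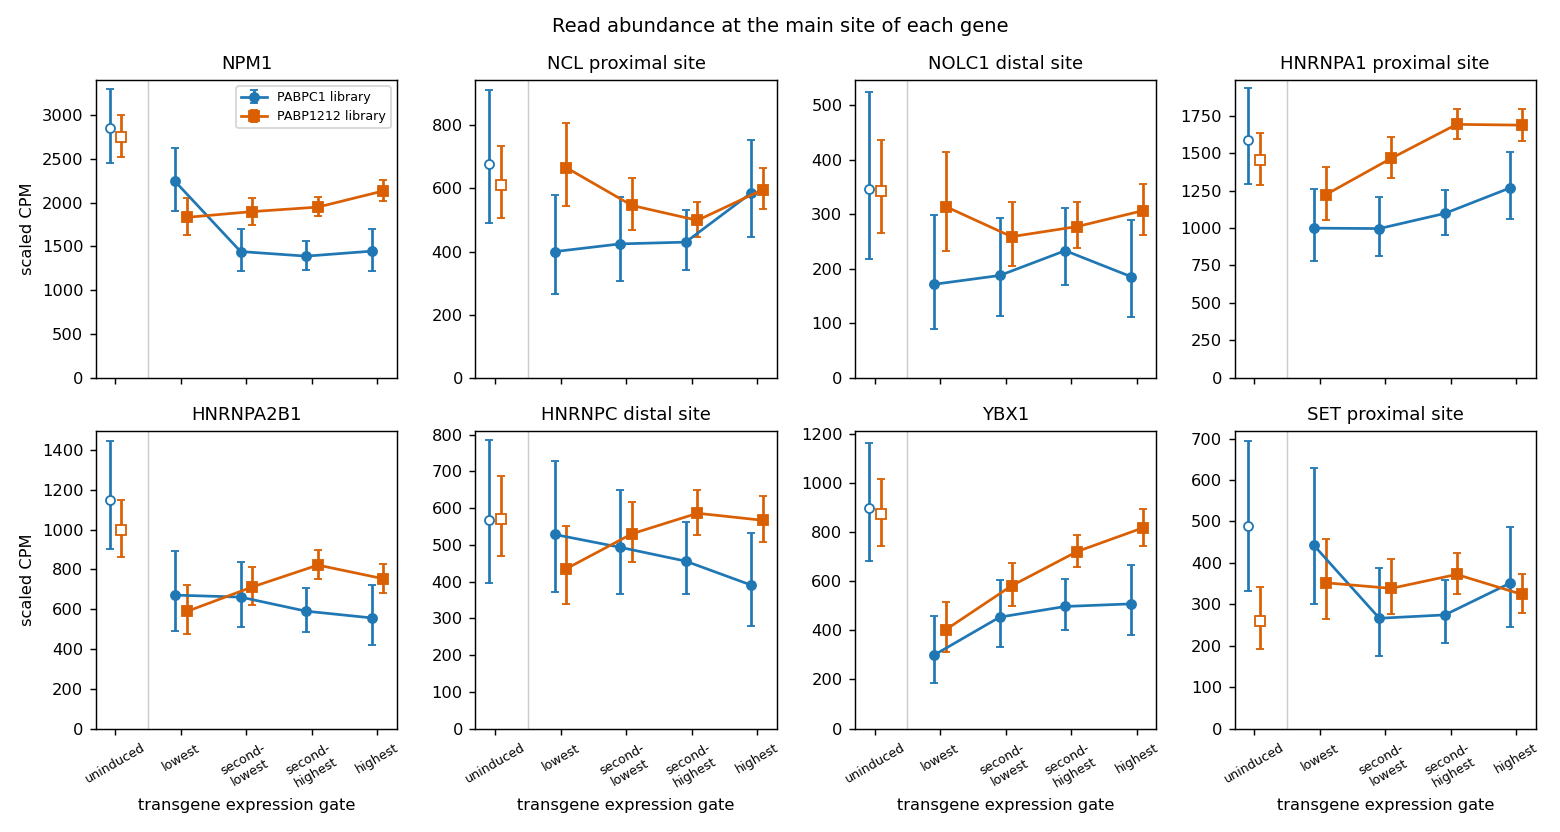
Scaled CPM (vertical axis, different for each gene) at the main site of each gene in uninduced cells (open symbols) and at the 4 transgene levels (horizontal axis) of the PABPC1 (circles) and PABP1212 (squares) libraries; bars are exact 95% Poisson intervals of the read count. YBX1 is lowest at the lowest level in both libraries (300 and 403 CPM) and NPM1 is highest in uninduced cells (2852 and 2751 CPM).

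Over the sorted levels, abundance changed at 13% of the 801 sites with PABPC1 (9.99% higher, 3% lower) and at 22.2% with PABP1212 (19% higher, 3.25% lower), and at 1 of the 12 sites in each. Scaled by total reads, 55 sites were higher and 31 lower with PABPC1 (80 and 24 here) and 84 and 30 with PABP1212 (152 and 26 here). With the upper quartile the PABP1212 split was 209 and 14. Distal NCL fell by 0.34 per level on the log2 scale with PABPC1 (SE 0.08, adjusted p = 0.0161, limma), and this was lost without the lowest (adjusted p = 0.161), second-highest (0.0622) or highest (0.0986) PABPC1 level, though the estimate stayed between −0.36 and −0.33 with 1 subsample left out, and no gene passed with the sites of a gene pooled. YBX1 rose by 0.34 per level with PABP1212 (SE 0.08, adjusted p = 0.0133, limma), which was lost without the lowest PABP1212 level (adjusted p = 0.857). With PABPC1 the YBX1 estimate was 0.24 (SE 0.08, adjusted p = 0.0611). The difference in trend between libraries passed at 0% of sites in limma, with an unadjusted p under 0.05 at 53 of 801 sites and at 4 of the 12, and at 0 sites with voom weights.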

How the data were processed

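The authors deposited tables with 1 read per row, per the file headers, giving the tail length of the read in nt beside its poly(A) site and subsample, and a table of barcodes. Per that table, each sorted level merges 3 barcodes and each uninduced subsample has 1. Libraries were made from 1 μg of RNA, per the labels' protocols. Per the submitters' processing notes, hg38, Bowtie2 and minimap2 were used, without roles or versions. For basecaller and tail caller nothing is given in the sources used here. Reads whose subsample name was absent from the barcode table entered no comparison.

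The members and gene lists were chosen with earlier results of these data known. All 8 genes are named. The main site has the most reads, and likeness is the Pearson r of median tails. Tails entered limma 3.58.1 (R 4.3.3) as each site's mean log2(nt + 1) in a subsample, weighted by reads, for the 914 sites that had 10 reads or more in every subsample. Abundance, counted here from the deposited reads, entered as log2(CPM + 1), scaled by median ratios to geometric means of 5662 sites, with a variance trend, for 801 sites. The terms were library, sorted against uninduced within library, and centred level within library. Adjusted p-values are Benjamini-Hochberg over all sites, with a threshold of 0.05. Each uninduced subsample was taken to vary like the levels, and nothing says that levels are separate cultures. The fits were tested on simulated data. Medians have 95% order-statistic intervals. Intervals cover counting error only. Figures were drawn with Matplotlib 3.10.9, and tables were made with SciPy 1.17.1, pandas 2.3.3 and NumPy 2.4.6 in Python 3.11.15. Alternatives covered scaling, filters, weights, the log, short tails, pooled sites and leaving out each subsample.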

Additional observations from a re-analysis of the deposited data

Results flagged for a closer look

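SET abundance lay on opposite sides of uninduced cells in the 2 libraries. At the proximal SET site every PABP1212 level was above its uninduced cells, by at least 64.4 CPM, and every PABPC1 level was below. The distal SET site did the same, with a smallest rise of 7.58 CPM. At the proximal site the uninduced cells themselves differed, with 488 CPM (31 reads) in the PABPC1 library and 259 CPM (50 reads) in the PABP1212 library. The sorted levels there ran from 266 to 443 CPM with PABPC1 and from 324 to 372 CPM with PABP1212. The opposite sides at this site thus rest on uninduced values that differ between the libraries. The pattern of opposite sides also depends on the scaling. By total reads the lowest PABPC1 level (471 CPM) was above uninduced cells (459 CPM) at the proximal site, and the highest (239 CPM) was above them (237 CPM) at the distal site. It was not tested as such, and the difference between libraries in the change from uninduced to the mean of the sorted levels had adjusted p = 0.327 (proximal) and 0.659 (distal) in limma. The PABPC1 values rest on 15 to 53 reads per subsample.

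Reads whose subsample name was absent from the barcode table occurred at these sites in both libraries: 114 in the PABPC1 library, with a median tail of 95.5 nt, and 994 in the PABP1212 library, with a median of 79 nt.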

How the results depend on the processing

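Counts here are sites of the 12 that passed (of 13 without a filter, and of 8 genes with pooled sites). For the PABP1212 tail trend, 4 (139 of all sites) became 2 with that library fitted alone (85 of all) and with no weights (231), 8 in nt without a log (407) and without tails under 10 nt (427), and 0 with subsample medians subtracted (10), which reversed proximal HNRNPA1 (0.0119), proximal HNRNPC (0.0674), distal NCL (0.0553) and distal SET (0.0453). Leaving out 1 subsample gave 0 to 9 (11 to 665 of all), and 0 to 2 (from 0) for the difference in tail trend, with 2 without the highest PABP1212 level. Without the lowest or highest PABP1212 level the distal NOLC1 trend was −0.0072 or −0.065, and −0.065 to 0.104 over all subsamples left out in turn. For the PABPC1 abundance trend, 1 became 0 with pooled sites, no filter or voom weights (chosen after seeing the data), and 0 to 3 with 1 subsample left out (3 without the second-lowest PABPC1 level). For the PABP1212 abundance trend, 1 became 2 with upper-quartile scaling, 0 with a mean of 10 reads or no filter, and 0 to 2 with 1 left out (2 without the lowest PABPC1 level). For abundance against uninduced cells, 6 became 3 with PABPC1 under upper-quartile scaling, where distal HNRNPA1 was 0.0406. With 1 left out it was 6 to 7. With PABP1212, 0 became 3 fitted alone, 2 with voom and 0 to 3 with 1 left out (3, 1 and 2 without the lowest PABPC1, second-lowest PABPC1 and highest PABP1212 level). The difference between libraries gave 0 to 1 (1 without the lowest PABPC1 level). The NOLC1 main site held 87.1% of reads, and 100% where sites needed 10 reads everywhere. The causes were not tested. YBX1, NPM1 and HNRNPA2B1 passed for PABPC1 abundance in all 16 alternatives run.

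Depth limits NOLC1 and distal SET, whose PABPC1 subsamples had 12 to 45 reads. No paired analysis was possible because, between libraries or levels, the labels give 1 sample per transgene and no replicate numbers that groups share.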
